A study of Mus musculus with 18 samples.

Results

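Bcat1, Aldh1l2, Ret, Hunk, Nrk, Ttyh1 and Nrep are 7 of the 15224 genes measured in quadriceps muscle of mice aged 2 and 17 months. They were picked from earlier results of these same libraries because their RNA was lower at 17 than at 2 months and because they do not encode matrix proteins. The age difference therefore describes how they were picked and is given without a test. Only 2 ages were sampled, so the libraries hold no measure of when between these ages the level fell, or of growth itself.

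The mice were of strain C57/Bl6 and fell into 6 groups of 3, each library being made from 1 mouse. Floxed controls were homozygous for a Pofut1 allele flanked by recombination sites and had no Cre. Cre controls had Cre recombinase under the skeletal alpha actin promoter and wild-type Pofut1. Knockout mice had that Cre and the floxed alleles together, so that Pofut1, the enzyme that adds O-fucose to EGF-like repeats of Notch receptors and other proteins, is lost where the promoter is active, which is in muscle fibres and not in the other cells of the tissue. Each genotype was sampled at 2 and at 17 months.

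The genes belong to several pathways. Bcat1 is the cytosolic enzyme that starts the breakdown of leucine, isoleucine and valine by moving their amino group to 2-oxoglutarate, a step that Bcat2 carries out in mitochondria, the form most used by muscle. Aldh1l2 is a mitochondrial enzyme that oxidises 10-formyltetrahydrofolate and yields NADPH, and Aldh1l1 is its cytosolic relative. Ret is the receptor tyrosine kinase for ligands of the GDNF family, which bind it together with a Gfra coreceptor and act on motor neurons among other cells. Hunk is a serine/threonine kinase related to AMPK, and Nrk, encoded on the X chromosome, is a kinase of the germinal centre kinase family known from embryonic skeletal muscle of the mouse and from placenta. Ttyh1 is a membrane protein of the tweety family known mostly from the nervous system, and Nrep is a small protein known from regenerating nerve and from TGF-beta signalling.

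Promoters are shown for the 4 genes that matched RefSeq's table for GRCm38.p6, so that their composition can be read beside the values. They include Bcat1, Nrk and Ttyh1, which had the steepest falls of the 7 in control muscle. Each window has 300 bases, 250 before the start of transcription and 50 from it onwards, 5′ to 3′ on the strand of the gene. Capitals mark matches, on either strand, to 7 motifs. The motifs were the TATA box (TATAAA), the GC box (GGGCGG), the CCAAT box (CCAAT), an E-box of the MYC type (CACGTG), an E-box of the MyoD type (CAGCTG), the cAMP response element (TGACGTCA) and the AP-1 element (TGANTCA). No 2 matches in these windows overlapped.
Bcat1, minus strand, chr6:145076108-145076407: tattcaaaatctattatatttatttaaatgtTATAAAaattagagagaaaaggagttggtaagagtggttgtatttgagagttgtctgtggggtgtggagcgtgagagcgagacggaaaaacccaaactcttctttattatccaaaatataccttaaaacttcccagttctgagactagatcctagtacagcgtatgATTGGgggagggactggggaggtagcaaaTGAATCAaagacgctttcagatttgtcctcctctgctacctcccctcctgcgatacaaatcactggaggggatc
Nrk, plus strand, chrX:138914180-138914479: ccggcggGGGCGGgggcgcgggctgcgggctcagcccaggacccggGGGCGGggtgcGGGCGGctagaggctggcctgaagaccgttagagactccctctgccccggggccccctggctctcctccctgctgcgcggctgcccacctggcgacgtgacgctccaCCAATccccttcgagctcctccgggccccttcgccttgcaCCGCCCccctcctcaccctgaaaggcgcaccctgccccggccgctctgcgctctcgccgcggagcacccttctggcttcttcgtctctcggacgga
Ttyh1, plus strand, chr7:4119280-4119579: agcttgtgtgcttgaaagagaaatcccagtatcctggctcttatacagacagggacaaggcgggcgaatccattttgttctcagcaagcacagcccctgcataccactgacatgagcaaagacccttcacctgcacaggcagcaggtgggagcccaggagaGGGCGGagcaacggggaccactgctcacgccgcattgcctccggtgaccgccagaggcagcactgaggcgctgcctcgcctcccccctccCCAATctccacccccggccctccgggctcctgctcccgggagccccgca
Hunk, plus strand, chr16:90386147-90386446: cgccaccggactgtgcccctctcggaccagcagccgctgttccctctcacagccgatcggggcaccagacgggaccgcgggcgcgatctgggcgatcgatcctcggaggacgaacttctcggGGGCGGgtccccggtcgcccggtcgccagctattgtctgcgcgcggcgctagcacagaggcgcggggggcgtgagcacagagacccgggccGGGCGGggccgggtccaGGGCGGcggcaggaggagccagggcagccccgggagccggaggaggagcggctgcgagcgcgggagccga

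These windows differed widely in base composition. The Hunk window had a GC content of 75.7% with 41 CG pairs and the Nrk window 74.7% with 31, against a median of 52.7% and 7 CG pairs over all 32851 promoters of this length. Ttyh1 had 63.3% with 14 CG pairs, and Bcat1 had 41.0% with 6. Counting the first transcribed base as 1 and the base before it as -1, Nrk had 4 GC boxes beginning at -243, -204, -193 and -46 and a CCAAT box at -86. Hunk had 3 GC boxes at -128, -37 and -20, and Ttyh1 had 1 at -89 and a CCAAT box at 2. Bcat1 had no GC box, but a TATA box at -219, a CCAAT box at -53 and an AP-1 element at -24. A GC box is found in 35.7% of all these promoters, a CCAAT box in 37.4%, a TATA box in 13.6% and an AP-1 element in 7.81%. No window held the E-box of the MYC type (7.15% of promoters), that of the MyoD type (16.3%) or the cAMP response element (1.79%). A downstream start of Bcat1 at chr6:145048763-145049062, with 58.7% GC, matched none of the 7 motifs. A match is a string of letters and not a measured site, and no binding or chromatin data belong to these libraries.

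Acta1, the actin of skeletal muscle fibres, was at 13090 to 18300 counts-per-million (CPM) in all 18 libraries, and library totals ran from 24901936 to 31440196 counts. Pofut1 was at 12.7 to 19.6 CPM in the 12 control libraries and at 9.3 to 10.6 CPM in 5 of the 6 knockout libraries. The library labelled knockout 40, at 17 months, had 16.3 CPM, which is a control level. Some of the results that include it, but not all, are also given without it. High Xist, the RNA of the inactive X chromosome, marked 3 of 9 libraries at 2 months and 6 of 9 at 17 months, so that age and sex are in part confounded. In bulk muscle RNA, fewer cells of a type and less RNA per cell cannot be told apart.

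Nrep had by far the most RNA of the 7 genes per length of exon, and Bcat1 and Hunk the least. In the 6 control libraries at 2 months, the level in CPM per kilobase of exon (GENCODE M21) was 39.2 for Nrep, 1.62 for Aldh1l2 and 1.13 for Ret. It was 0.342 for Ttyh1, 0.208 for Nrk, 0.123 for Bcat1 and 0.104 for Hunk. On that scale Nrep, at 30.9 to 45.6, was clear of Aldh1l2, at 1.3 to 2.02. Aldh1l2 overlapped Ret (0.906 to 1.43), Ttyh1 (0.254 to 0.513) overlapped Nrk (0.114 to 0.331), and Bcat1 (0.0713 to 0.201) overlapped both Nrk and Hunk (0.0814 to 0.136). One count was worth 0.0312 to 0.0393 CPM, so that the rarest of the 7 genes rested on few counts. Over the 18 libraries Bcat1 had 1 to 52 counts, Hunk 5 to 32, Nrk 6 to 85 and Ttyh1 5 to 95, whereas Aldh1l2 had 96 to 422, Ret 31 to 268 and Nrep 508 to 4954.

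Bcat1, on chromosome 6 at 144993835 to 145076184 (GRCm38, minus strand), had about 1 CPM in young floxed muscle and was near the limit of counting in old floxed muscle. The floxed libraries 32, 57 and 92 at 2 months had 1.18, 1.87 and 1.03 CPM, and floxed 5, 46 and 48 at 17 months had 0.0779, 0.0766 and 0.106 CPM. Those 3 old libraries held 2, 2 and 3 counts, which is at or under the floor of 3 counts. Summed over mice, 115 counts at 2 months stood against 7 at 17 months, a ratio of 15.5. Counting error alone gives this ratio an exact 95% range of 7.3 to 39.5, which describes how few counts it rests on and is no test of the age difference. In Cre controls the young libraries 61, 93 and 94 had 0.664, 1.06 and 1.05 CPM and the old libraries 34, 35 and 99 had 0.157, 0.187 and 0.46 CPM. Cre 99 came close to the lowest young Cre library, but the ages did not overlap in either control genotype.

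In knockout muscle Bcat1 did not separate the ages. Knockout 80, 82 and 83 at 2 months had 1.03, 0.174 and 0.492 CPM, while knockout 17 at 17 months had 0.466 CPM, the library labelled knockout 40 had 0.0392 CPM and knockout 45 had 0.481 CPM. Young knockout 82, with 5 counts, lay below 2 of the old knockout libraries, and the library labelled knockout 40 held 1 count. The ratio of summed counts between the ages was 3.51 in Cre controls and 1.66 in knockout. On the log2 scale the change with age was -3.89 in floxed, -1.78 in Cre and -0.75 in knockout muscle, with standard errors that the plot of age changes shows. It was 0.01 in knockout muscle without young knockout 80, and -0.24 without the library labelled knockout 40, so that the size and sign in knockout muscle rested on single mice.

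Bcat2, the mitochondrial counterpart, had more RNA than Bcat1 at both ages. Its level was 20.7 ± 2.72 CPM in control muscle at 2 months (SD, n = 6) and 24.4 ± 2.31 at 17 months (SD, n = 6), or 5.32 and 6.26 CPM per kilobase. The log2 change of Bcat2 with age was 0.24 (adjusted p = 0.146, edgeR quasi-likelihood F-test with Benjamini-Hochberg adjustment over all genes, which also gives every adjusted p below).

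**Figure D1:**
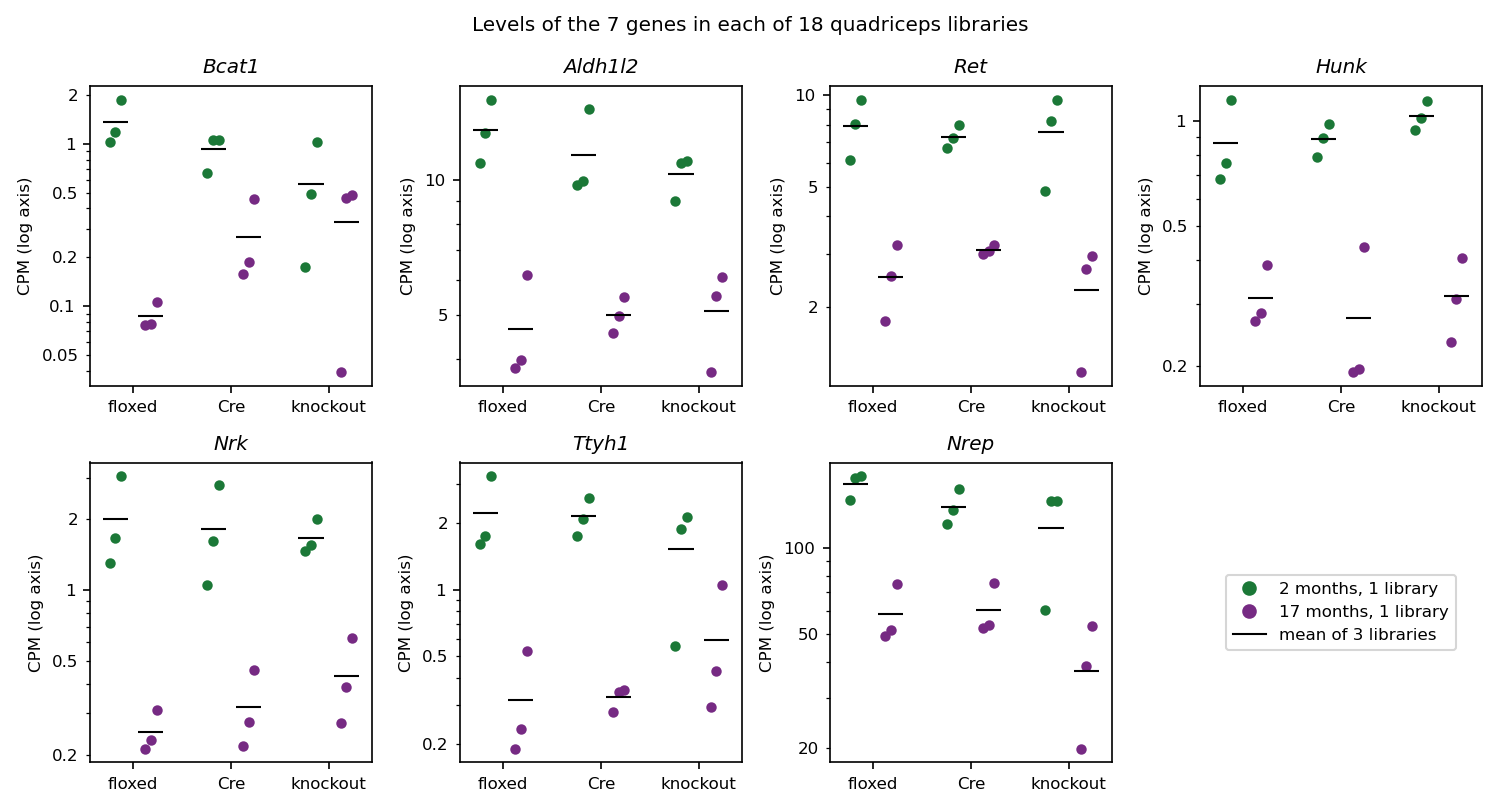
Levels of the 7 genes in CPM (vertical log axis, a separate range for each gene) by genotype (horizontal axis), with 1 point per library, green at 2 months and purple at 17 months, and a line at the mean of 3 libraries. In Nrk, Hunk, Aldh1l2 and Ret every green point lies above every purple point, while in Bcat1, Ttyh1 and Nrep 1 young knockout library lies among the old ones.

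Aldh1l2, on chromosome 10 at 83487450 to 83534140 (minus strand), had a smaller difference between the ages than Bcat1, with little spread. Floxed 32, 57 and 92 had 15.1, 10.9 and 12.7 CPM at 2 months, and floxed 5, 46 and 48 had 6.15, 3.98 and 3.82 CPM at 17 months. Cre 61, 93 and 94 had 9.97, 9.75 and 14.4 CPM against 4.56, 4.99 and 5.49 CPM in Cre 34, 35 and 99. The lowest young control lay above the highest old one by a margin larger than the range of the old libraries. In knockout 80, 82 and 83 it was 11.0, 8.99 and 10.9 CPM, while knockout 17 and 45 had 3.73 and 5.52 CPM, and the library labelled knockout 40 had 6.08 CPM. No old library of any genotype reached a young one, and Aldh1l2 was the only 1 of the 7 in which the library labelled knockout 40 was the highest of its group. The log2 change with age was -1.47 in floxed, -1.18 in Cre and -1.01 in knockout muscle. The SD of log2 CPM within groups was 0.281, the smallest of the 7 genes, against 0.781 for Bcat1, the largest.

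Aldh1l1, the cytosolic relative, was at 7.9 ± 3.52 CPM in young controls and 8.34 ± 1.93 in old controls (SD, n = 6 each), with a log2 change of 0.10 (adjusted p = 0.765). Per kilobase Aldh1l1 and Aldh1l2 were close at 2 months, at 1.75 and 1.62 CPM. At 17 months Aldh1l1 was at 1.85 and Aldh1l2 at 0.644.

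Ret, on chromosome 6 at 118151745 to 118197718 (minus strand), was lower at 17 months by a factor of 2.36 to 3.32 in the 3 genotypes. Floxed 32, 57 and 92 had 8.06, 9.65 and 6.13 CPM, and floxed 5, 46 and 48 had 2.53, 1.8 and 3.22 CPM. Cre 61, 93 and 94 had 7.24, 7.97 and 6.68 CPM against 3.06, 3.0 and 3.22 CPM in Cre 34, 35 and 99. The old Cre libraries were nearly equal, and neither control genotype overlapped between ages. The young knockout libraries 80, 82 and 83 had 9.68, 4.84 and 8.24 CPM, knockout 17 and 45 had 2.68 and 2.96 CPM, and the library labelled knockout 40 had 1.22 CPM. Young knockout 82 was the lowest of the 9 young libraries and the library labelled knockout 40 the lowest of the 9 old ones, and even so the ages did not overlap. The log2 change with age was -1.65 in floxed, -1.24 in Cre and -1.73 in knockout muscle.

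Of the coreceptors of Ret, Gfra2 fell with age in control muscle, from 1.72 ± 0.235 to 1.08 ± 0.206 CPM (SD, n = 6 each), a log2 change of -0.67 (adjusted p = 0.02). Gfra1 had 6.92 ± 1.06 and 6.14 ± 1.01 CPM (SD, n = 6 each), with a log2 change of -0.18 (adjusted p = 0.336). Gfra3 and Gfra4 were not analysed here. The summed level of 13 Schwann cell markers was 93.7 to 108.0 CPM in young and 64.5 to 81.3 CPM in old controls. Among these markers 3 fell, where 10.1% of all genes did so. Of 12 neuronal markers 3 were measured, 1 of which fell, and their sum was 2.13 to 3.88 CPM in young and 2.72 to 5.34 CPM in old controls. What part such cells had in the level of Ret was not tested.

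Hunk, on chromosome 16 at 90386013 to 90499553 (plus strand), had few counts, but its fall was the most alike among genotypes. Floxed 32, 57 and 92 had 1.15, 0.684 and 0.757 CPM, and floxed 5, 46 and 48 had 0.389, 0.268 and 0.283 CPM. Cre 61, 93 and 94 had 0.979, 0.79 and 0.896 CPM against 0.196, 0.437 and 0.192 CPM in Cre 34, 35 and 99. Cre 35 had more than the other old Cre libraries and still less than every young library. Knockout 80, 82 and 83 had 1.14, 0.941 and 1.02 CPM, knockout 17 and 45 had 0.311 and 0.407 CPM, and the library labelled knockout 40 had 0.235 CPM. No young and old libraries overlapped in any genotype. The log2 change was -1.45 in floxed, -1.64 in Cre and -1.68 in knockout muscle, and -2.16 in Cre muscle without old Cre 35.

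Nrk, on chromosome X at 138914430 to 139010532 (plus strand), had one of the steepest falls in each genotype. Floxed 32, 57 and 92 had 3.05, 1.66 and 1.31 CPM, and floxed 5, 46 and 48 had 0.311, 0.23 and 0.212 CPM. Cre 61, 93 and 94 had 1.05, 1.61 and 2.8 CPM against 0.275, 0.218 and 0.46 CPM in Cre 34, 35 and 99. Young libraries varied widely, yet the lowest of them, Cre 61, exceeded the highest old control. Knockout 80, 82 and 83 had 2.01, 1.46 and 1.55 CPM, knockout 17 and 45 had 0.389 and 0.629 CPM, and the library labelled knockout 40 had 0.274 CPM. The ages were separate here too, with old knockout 45 the highest of the 9 old libraries. The log2 change was -2.98 in floxed, -2.51 in Cre and -1.94 in knockout muscle.

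Among relatives of Nrk in its kinase family, Map4k4 also fell in control muscle, from 53.7 ± 7.87 to 29.8 ± 4.23 CPM (SD, n = 6 each), a log2 change of -0.85 (adjusted p = 0.000218). Tnik had 75.2 ± 12 and 68.2 ± 5.17 CPM (SD, n = 6 each), with a log2 change of -0.14 (adjusted p = 0.379). Mink1 was not analysed here. Per kilobase Nrk was at 0.208 CPM in young controls, Tnik at 3.9 and Map4k4 at 5.6.

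Ttyh1, on chromosome 7 at 4119408 to 4136708 (plus strand), had nearly the same difference between the ages in both control genotypes. Floxed 32, 57 and 92 had 1.76, 1.62 and 3.27 CPM, and floxed 5, 46 and 48 had 0.234, 0.191 and 0.531 CPM. Cre 61, 93 and 94 had 1.75, 2.61 and 2.09 CPM against 0.354, 0.281 and 0.345 CPM in Cre 34, 35 and 99. Control libraries of the 2 ages lay far apart. Levels in knockout 80, 82 and 83 were 2.13, 0.558 and 1.89 CPM, while knockout 17 and 45 had 1.05 and 0.296 CPM, and the library labelled knockout 40 had 0.431 CPM. Here young knockout 82 lay below old knockout 17, so that the ages overlapped in knockout muscle by 1 library on each side. The log2 change was -2.77 in floxed, -2.71 in Cre and -1.36 in knockout muscle. It was -2.05 in knockout muscle without old knockout 17.

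Neither of the other tweety genes passed the test for age. Ttyh2 had 16.0 ± 3.83 CPM in young and 13.7 ± 3.62 in old controls (SD, n = 6 each), with a log2 change of -0.23 (adjusted p = 0.271). Ttyh3 had 1.16 ± 0.242 and 1.04 ± 0.302 CPM (SD, n = 6 each), with a log2 change of -0.13 (adjusted p = 0.666). Per kilobase Ttyh2 was at 4.28 CPM in young controls, Ttyh1 at 0.342 and Ttyh3 at 0.203.

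Nrep, on chromosome 18 at 33437019 to 33464029 (minus strand), was the most abundant of the 7 and the best counted. Floxed 32, 57 and 92 had 176, 178 and 147 CPM, and floxed 5, 46 and 48 had 49.2, 51.5 and 75.0 CPM. Cre 61, 93 and 94 had 136, 161 and 121 CPM against 53.6, 75.7 and 52.4 CPM in Cre 34, 35 and 99. Every young control was above every old one. Among knockout libraries, 80, 82 and 83 had 146, 60.7 and 146 CPM, knockout 17 and 45 had 38.6 and 53.2 CPM, and the library labelled knockout 40 had 19.9 CPM. Young knockout 82 was above the old knockout libraries but below 2 of the old controls, and the library labelled knockout 40 was the lowest of all 18. The log2 change was -1.51 in floxed, -1.20 in Cre and -1.66 in knockout muscle.

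**Figure D2:**
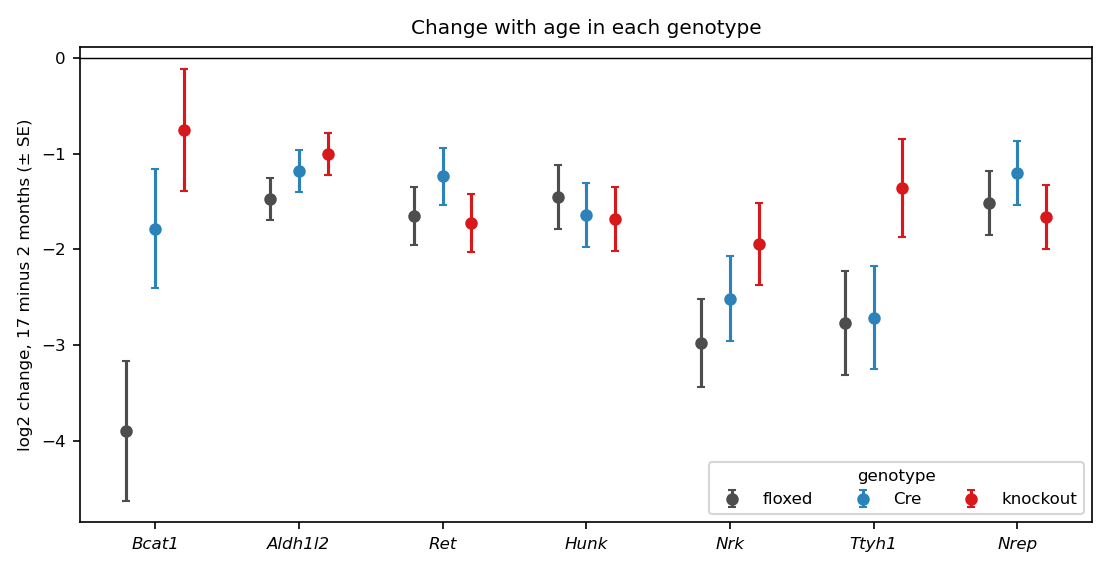
Change of each of the 7 genes (horizontal axis) from 2 to 17 months on the log2 scale (vertical axis) in floxed, Cre and knockout muscle, with bars of 1 standard error from the edgeR model of all 18 libraries. Every point lies below 0, Bcat1 differs most between genotypes (-3.89, -1.78 and -0.75), and Hunk least (-1.45, -1.64 and -1.68).

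The median log2 change with age over the 7 genes was -1.65 in floxed, -1.64 in Cre and -1.66 in knockout muscle, beside medians of -0.00841, -0.0161 and 0.0105 over all genes. A different gene stood at the median in each genotype (Ret, Hunk and Nrep), and single genes varied more between genotypes than these medians. Leaving out each mouse in turn moved the median between -1.87 and -1.46 in floxed, between -1.68 and -1.44 in Cre and between -1.90 and -1.36 in knockout muscle. The knockout value of -1.36 was that without the library labelled knockout 40, so the likeness of the 3 medians rested in part on that library. With it left out, the knockout change was -1.7 for Nrk, -1.51 for Hunk, -1.42 for Ret and -1.36 for Nrep. It was then -1.18 for Ttyh1, -1.15 for Aldh1l2 and -0.24 for Bcat1. Every young library lay above every old one for 7 of 7 genes in floxed muscle, where 17.4% of all genes did so, and for 7 of 7 in Cre muscle, against 10.5%. In knockout muscle this held for 5 of 7, against 10.7%, the exceptions being Bcat1 and Ttyh1. Across all 18 libraries it held for 4 of 7, against 0.959%, namely Nrk, Hunk, Aldh1l2 and Ret. These counts restate how the genes were picked. Without the library labelled knockout 40 they were 5 and 4 of 7, against 19.5% and 1.13% of all genes.

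Separation was also described within the classes of high and low Xist. These counts too restate how the genes were picked and are no test of the part of sex. Among the 9 low libraries, 6 young and 3 old, the ages were separate for 7 of 7 genes, against 5.41% of all genes, with ratios of the mean CPM at 2 months to that at 17 months from 2.34 for Aldh1l2 to 5.62 for Ttyh1. Among the 9 high libraries, 3 young and 6 old, they were separate for 4 of 7, against 5.21% of all genes, the exceptions being Bcat1, Ttyh1 and Nrep. The ratios there ran from 2.49 for Nrep to 7.76 for Nrk. Young knockout 82 is one of the 3 young libraries with high Xist.

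Single libraries stood apart in several of the genes at once. Young knockout 82 was the lowest of its group in 7 of 7 genes, and its log2 CPM differed from the mean of young controls by -0.94 on average, against 0.09 in knockout 80 and -0.18 in knockout 83. The library labelled knockout 40 was the lowest of its group in 5 of 7 genes, with an average of -2.28 against -1.5 in knockout 17 and -1.42 in knockout 45. Control libraries lay between -0.28 and 0.23 at 2 months and between -2.18 and -1.57 at 17 months. In the same knockout libraries the summed level of 40 matrix genes ran in parallel. It was 5090, 2820 and 3770 CPM in knockout 80, 82 and 83, 2350 and 2980 CPM in knockout 17 and 45, and 1320 CPM in the library labelled knockout 40. Young controls had 3260 to 4990 CPM of these genes and old controls 1290 to 1650 CPM.

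The sums of 12 markers of fibro-adipogenic cells, the connective tissue cells of muscle, were lowest in the same mice. They were 931, 804 and 903 CPM in knockout 80, 82 and 83, 792 and 876 CPM in knockout 17 and 45, and 672 CPM in the library labelled knockout 40. The sum of 10 tenocyte markers was 378, 368 and 321 CPM in knockout 80, 82 and 83, 193 and 191 CPM in knockout 17 and 45, and 144 CPM in the library labelled knockout 40. The fibro-adipogenic markers Dcn, Lum and Col15a1 and the tenocyte markers Fmod and Thbs4 are also in the list of matrix genes. These sums and that of the matrix genes therefore rest in part on the same RNA. What part the marked cells had in the levels of the 7 genes was not tested. Without young knockout 82, which was singled out after its values were seen, 7 of 7 genes separated the ages in knockout muscle, where 16.3% of all genes then did so, and over all libraries, where 1.37% did.

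**Figure D3:**
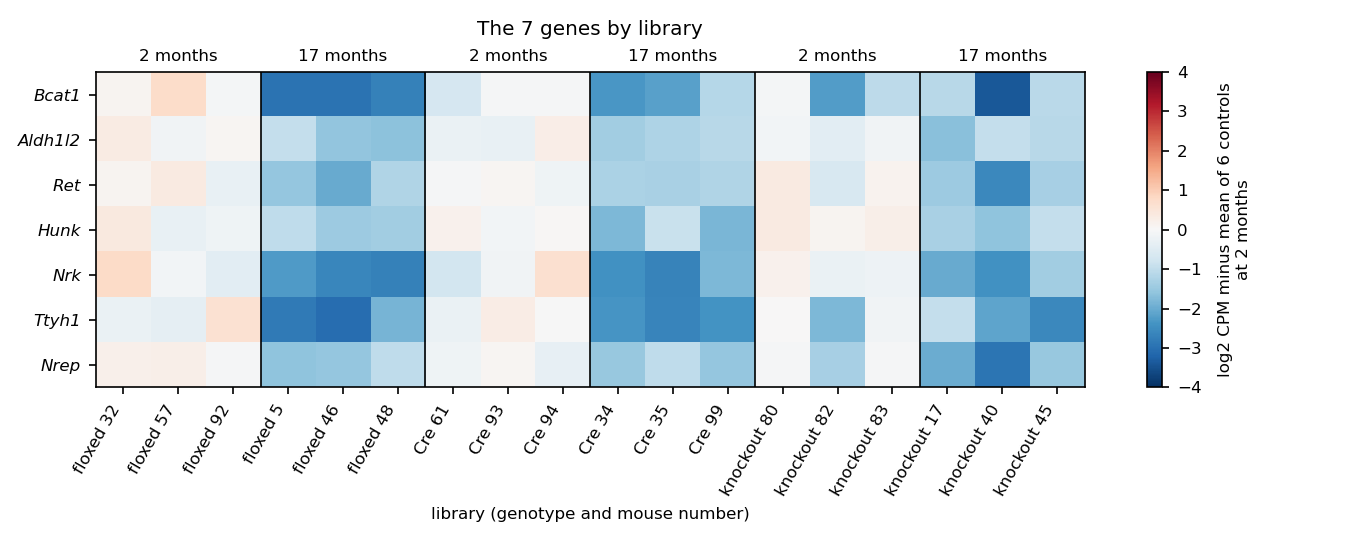
Log2 CPM of the 7 genes (rows) in the 18 libraries (columns, by genotype and mouse number), minus the mean of the 6 control libraries at 2 months, blue for lower and red for higher. Columns at 17 months are blue throughout, and young knockout 82 (average -0.94) is bluer than the other young libraries.

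The first question that the design puts to these genes is whether loss of Pofut1 in fibres changed their level at either age. At 2 months 0 of 7 were called different in knockout against both controls together, at an adjusted p under 0.05 (edgeR; 0.0657% of all genes were called). None had an unadjusted p under 0.05, beside 1298 of all genes. DESeq2 also called 0, and the smallest adjusted p by edgeR was 0.609 (Bcat1). The log2 differences ran from -1.0 (Bcat1) to 0.24 (Hunk), and 6 of 7 were negative. Counting error and mouse spread left wide limits for Bcat1, whose difference had a 95% interval of -2.07 to 0.08, while for Aldh1l2 it was -0.63 to 0.15 and for Ret -0.53 to 0.51. The Bcat1 difference was -1.74 without young knockout 80 and -0.55 without young knockout 82. Without young knockout 82, that of Ttyh1 went from -0.52 to -0.11 and that of Nrep from -0.38 to -0.05.

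At 17 months 0 of 7 were called in knockout against controls (edgeR, where 1.49% of all genes were called), and DESeq2 called 0 as well. Beside 3576 of all 15224 genes, 1 of 7 had an unadjusted p under 0.05 by edgeR. This was Nrep, at 37.2 ± 16.7 CPM in old knockout (SD, n = 3) and 59.5 ± 12.3 CPM in old controls (SD, n = 6). Its log2 difference was -0.68, with a 95% interval of -1.3 to -0.06 and an adjusted p of 0.179, and it was -0.38 (adjusted p = 0.425) without the library labelled knockout 40. The log2 difference was 1.09 for Bcat1 (interval -0.27 to 2.45, adjusted p = 0.312), 0.86 for Ttyh1 (-0.19 to 1.91, adjusted p = 0.302) and 0.62 for Nrk (-0.29 to 1.52, adjusted p = 0.396). That of Ttyh1 was 0.16 without old knockout 17, and that of Nrk 0.24 without old knockout 45. Against floxed controls alone the Bcat1 difference was 1.87 (adjusted p = 0.164), and against Cre controls alone it was 0.31 (adjusted p = 0.88). For Aldh1l2 it was 0.08 (-0.32 to 0.49), for Hunk 0.10 (-0.58 to 0.78) and for Ret -0.29 (-0.86 to 0.29). Without the library labelled knockout 40, the Bcat1 difference was 1.60 (adjusted p = 0.0993) and 0 of 7 were called, whereas the share of all genes called went to 6.83%.

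Whether the fall itself differed between genotypes was tested by the difference of the age changes, which uses the same libraries as the choice of the genes. The control libraries in the comparisons at each age are likewise ones in which the genes were picked. The fall in knockout was not called different from that in controls for any of the 7 (0 of 7 by edgeR, where 0% of all genes were called, and 0 of 7 by DESeq2). At an unadjusted p under 0.05 there were 2 of 7, beside 1714 of all 15224 genes. The log2 age change of Bcat1 was less negative in knockout than in controls by 2.09 (SE 0.817, interval 0.35 to 3.82, adjusted p = 0.382), and that of Ttyh1 by 1.38 (SE 0.64, interval 0.02 to 2.74, adjusted p = 0.439). Without old knockout 17 the Ttyh1 value was 0.69 (adjusted p = 0.761). Nrk, at 0.80, had an interval of -0.34 to 1.94. The other genes were closer to 0, with Aldh1l2 at 0.32 (-0.24 to 0.88), Hunk at -0.14 (-1.02 to 0.75), Ret at -0.28 (-1.05 to 0.49) and Nrep at -0.30 (-1.15 to 0.55).

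For Bcat1 the 2 controls gave different values. The difference of its age changes was 3.14 against floxed controls alone (SE 0.998, adjusted p = 0.303) and 1.03 against Cre controls alone (SE 0.899, adjusted p = 0.855). The 2 controls themselves differed by 2.11 in the age change of Bcat1 (interval -0.01 to 4.24, adjusted p = 0.764). Without the library labelled knockout 40, the difference from both controls was 2.60 (adjusted p = 0.102), and 0 of 7 were called. For Ttyh1 the values were 1.41 against floxed and 1.35 against Cre controls (adjusted p = 0.435 and 0.718).

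**Figure D4:**
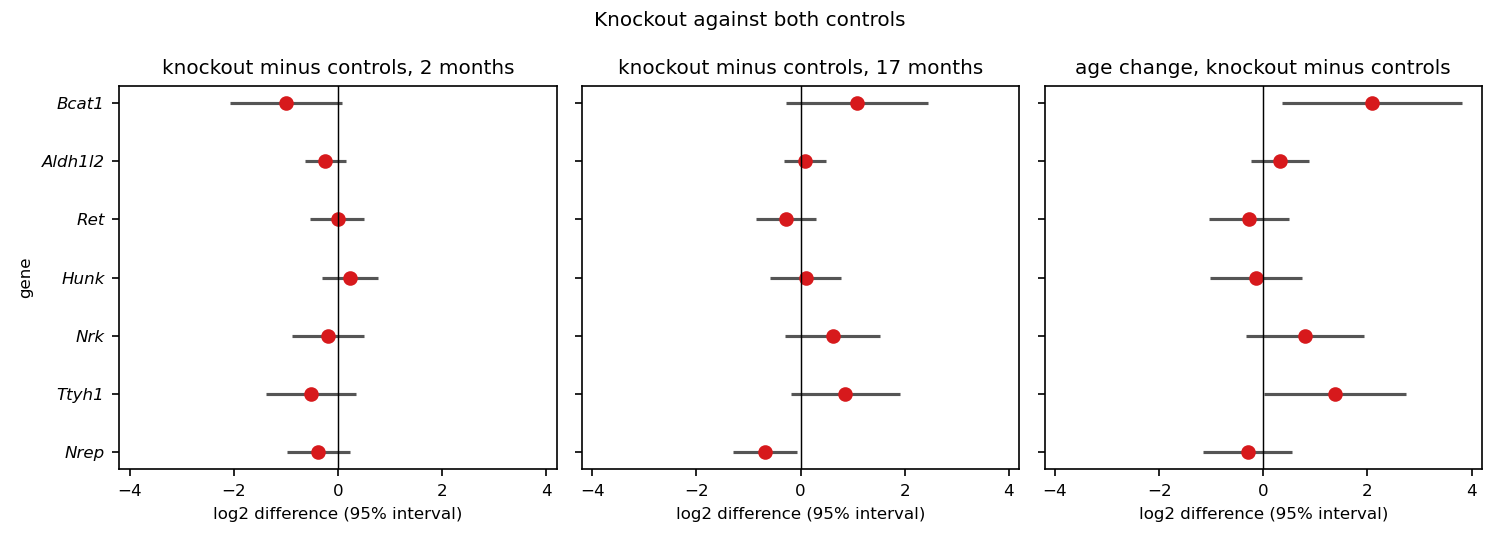
Log2 differences (horizontal axis) of the 7 genes (vertical axis) between knockout and both controls at 2 months, at 17 months and in the change with age, as points with 95% intervals. Each interval at 2 months includes 0, Nrep lies below 0 at 17 months (-1.3 to -0.06), and Bcat1 and Ttyh1 lie above 0 in the change with age, none with an adjusted p under 0.05 (Ttyh1 goes from 1.38 to 0.69 without old knockout 17).

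Between the 2 control genotypes the 7 genes were not called different either. At 2 months 0 of 7 were called (edgeR, 0.0131% of all genes) and at 17 months 0 of 7 (0.0131% of all genes). DESeq2 called 0 at each age. An unadjusted p under 0.05 was found for 0 of 7 at each age, beside 664 of all genes at 2 months and 1556 at 17 months. Bcat1 had the widest gap at 17 months, at 0.268 ± 0.167 CPM in Cre and 0.0869 ± 0.0167 in floxed muscle (SD, n = 3 each), a log2 difference of 1.56 (adjusted p = 0.53). In the age change, 0 of 7 were called by edgeR (0% of all genes) and 0 by DESeq2, and 0 of 7 had an unadjusted p under 0.05, beside 906 of all genes. The authors' deposited table also compares knockout with each control separately at each age. In those comparisons it has no adjusted p under 0.05 among those it gives for the 7 genes. At 17 months it gives one for 6 of the 7 against floxed controls, Bcat1 being blank, and for 3 of the 7 against Cre controls, with Bcat1, Nrk, Ttyh1 and Hunk blank. The smallest of the authors' adjusted p-values for knockout against a control is 0.176, for Nrep at 17 months against floxed controls.

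The pathways around these genes were described through lists written from their known roles and from those of genes of growing muscle, with the 7 genes left out. Earlier results of these data were known when the lists were written, so the counts below are a description and no test of a prediction. Of 310 measured list genes, 88 were called for age in control muscle (28.4%, against 18.1% of all genes), 14 higher and 74 lower at 17 months, and the median log2 change was -0.205. Outside the list of matrix genes 52 of 270 were called (19.3%, near the share of all genes), 14 higher and 38 lower. With Cre controls alone 26 of the 310 were called, where 1.8% of all genes were. In a list of 40 matrix genes 36 fell, among them the crosslinking enzymes Lox and Loxl2 and the basement membrane collagen Col4a1, with log2 changes of -1.56, -1.84 and -1.54 (adjusted p = 7.72e-05, 7.82e-05 and 7.82e-05).

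Of 28 genes for the breakdown and transport of branched-chain amino acids 4 rose and none fell (edgeR; over all genes, 8.07% rose and 10.1% fell). Pcca, a subunit of propionyl-CoA carboxylase, went from 26.0 ± 2.67 to 36.6 ± 5.91 CPM (SD, n = 6 each), a log2 change of 0.49 (adjusted p = 0.00289). Bckdha, a subunit of the branched-chain ketoacid dehydrogenase, rose by 0.35 (adjusted p = 0.0456) and Acat1 by 0.34 (adjusted p = 0.0448). Of 25 genes of folate metabolism and serine synthesis 2 fell, among them the thymidylate synthase Tyms (-0.89, adjusted p = 0.0164), and none rose. Of 18 genes of the response to amino acid starvation 5 fell and none rose. Aldh18a1 and Pycr1, enzymes of proline synthesis, changed by -1.58 and -0.75 (adjusted p = 0.00047 and 0.00507), and the stress protein Nupr1 by -0.97 (adjusted p = 0.000235).

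Of 21 genes of GDNF and RET signalling 6 fell and none rose. Dusp6, a phosphatase of ERK that ERK signalling induces, went from 14.6 ± 2.2 to 9.42 ± 1.31 CPM (SD, n = 6 each), a log2 change of -0.63 (adjusted p = 0.0022), and the transcription factor Etv4 changed by -0.93 (adjusted p = 0.00351). Etv4 was also the list's 1 gene called in old knockout against old controls, higher by 1.03 (SE 0.223, adjusted p = 0.0391), where 0.9% of all genes were called higher. A list of 17 genes held kinases related to AMPK and, upstream of them, Stk11, Cab39, Strada and Stradb. Of the 17, 1 rose, the upstream kinase Stk11 (0.28, adjusted p = 0.0182), and none of the kinases related to AMPK was called. Of 14 germinal centre kinases 2 rose, Stk26 by 1.15 and Oxsr1 by 0.39 (adjusted p = 0.000281 and 0.00166), and Map4k4 fell. Of 19 tweety and chloride channel genes 1 rose, Clcn3 (0.42, adjusted p = 0.00686), and 3 fell, Clcn5, Lrrc8a and Lrrc8c (-0.99, -0.38 and -0.59).

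Around Nrep, 7 of 23 genes of TGF-beta signalling fell and 1 rose. The ligand Tgfb3 rose by 0.50 (adjusted p = 0.000819), while the latent binding protein Ltbp1, Tgfb1i1 and the coreceptor Tgfbr3 changed by -0.76, -0.72 and -0.49 (adjusted p = 0.00242, 0.00368 and 0.00709). In the IGF axis 5 of 19 fell and 1 rose. Igf1 went from 80.0 ± 18.6 to 19.9 ± 4.42 CPM (SD, n = 6 each), a log2 change of -2.01 (adjusted p = 9.91e-05), Fstl1 and Igfbp7 changed by -1.28 and -0.87, and the growth hormone receptor Ghr rose by 0.29 (adjusted p = 0.0444). Of 18 imprinted growth genes 4 fell and none rose, among them Ndn, Mirg and Sgce (-1.01, -1.86 and -0.38). Of 28 cell cycle genes 2 fell, Mki67 and Cenpf (-1.46 and -1.72, adjusted p = 0.0498 and 0.0291), and 1 rose, Tpx2 (1.17, adjusted p = 0.00894). Actc1, the cardiac actin of immature fibres, had one of the largest changes of any list gene, from 717 ± 117 to 57.1 ± 33.0 CPM (SD, n = 6 each), a log2 change of -3.70 (adjusted p = 9.26e-05). It and the cadherin Cdh2 (-1.19) were the genes that fell among 19 genes of immature and regenerating fibres, where Des and Ankrd1 rose (0.71 and 1.72). Of 21 genes of the neuromuscular junction and denervation 1 rose and 1 fell, Hdac4 and Utrn (0.41 and -0.34, adjusted p = 0.0125 and 0.0343).

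**Figure D5:**
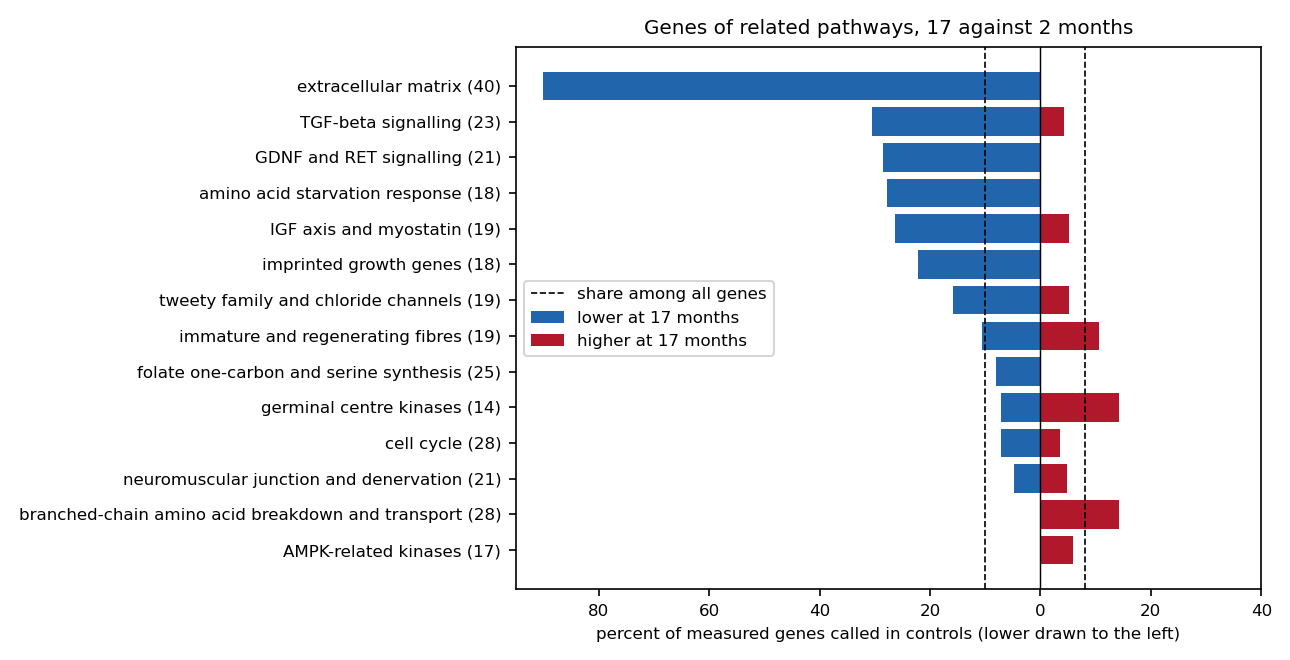
Share of the measured genes of each list (number in brackets) called higher (red, to the right) or lower (blue, to the left) at 17 than at 2 months in control muscle, in percent, with dashed lines at the share of all genes, 10.1% lower and 8.07% higher. Matrix genes stand at the top with 36 of 40 lower, and lists of branched-chain amino acid genes and AMPK-related kinases have none lower.

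In knockout muscle few of the list genes passed the test for age, 6 of 310 (1.09% of all genes were called), 2 higher and 4 lower. In old knockout against old controls 18 were called, 16 higher and 2 lower (1.49% of all genes), and 7 of the 16 belong to the list of immature and regenerating fibres. Among them were the embryonic and neonatal myosins Myh3 and Myh8 (higher by 3.02 and 2.35), the acetylcholine receptor subunits Chrnd and Chrna1 (1.26 and 1.09), the growth factor Igf2 (2.44) and the matrix proteins Bgn and Col8a1 (1.05 each). The 2 that were lower were Smad3, which carries the TGF-beta signal, and the mitotic kinase Aurka (-0.66 and -0.99). Both counts moved without the library labelled knockout 40, to 15 (11 higher, 4 lower) and 61 (54 higher, 7 lower). No list gene was called in knockout against controls at 2 months, by edgeR, where 10 of all genes were.

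Markers of other cells were counted in the same way in control muscle, where 10.1% of all genes fell with age and 8.07% rose. Of 12 markers of fibro-adipogenic cells 9 fell, and their summed level was 859 to 1170 CPM in young and 697 to 810 CPM in old controls. Of 10 tenocyte markers 7 fell (210 to 390 CPM against 127 to 180 CPM), and of 12 satellite cell markers 6 fell (129 to 143 CPM against 102 to 134 CPM). Of 11 endothelial markers 2 fell (272 to 480 against 189 to 361 CPM), of 12 macrophage markers 1 (259 to 542 against 193 to 290 CPM), and of 12 adipocyte markers 2, with 1 higher (287 to 1960 against 295 to 430 CPM). Of 11 smooth muscle and pericyte markers 4 fell and 1 rose (536 to 707 against 623 to 737 CPM), and of 5 measured T and B cell markers 1 rose (15.1 to 29.2 against 13.7 to 25.6 CPM). Of 12 markers of muscle fibres 3 rose and none fell. In knockout muscle 0.539% of all genes were called lower by edgeR. There 3 of 10 tenocyte markers fell, and 0 of 12 each of fibro-adipogenic, satellite cell and macrophage markers. Median log2 changes of these 4 lists in knockout muscle were -0.97, -0.02, -0.24 and 0.46, in that order. With Cre controls alone, where 0.998% of all genes were called lower, 5, 1, 0 and 0 of their markers fell. The part of any of these cells in the levels of the 7 genes was not tested.

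The genes whose profiles over the 18 libraries were most like those of the 7 were listed by the root mean square (RMS) difference of centred log2 CPM, among the 11311 genes whose mean level was 1 CPM or more. Ret was closest to Col5a3, a fibrillar collagen chain (RMS 0.259), and to Serpinh1, the collagen chaperone (0.289), where the median over all genes was 0.878. Bcat1 was closest to the fibrillar collagens Col5a2 (0.569) and Col3a1 (0.597), with a median of 1.25. Hunk was closest to Tmem45a (0.281) and the basement membrane collagen Col15a1 (0.317), with a median of 0.803. Nrk was closest to Wisp1, a secreted protein of the CCN family (0.396), and to Adamtsl2 (0.454), with a median of 1.21. Ttyh1 was closest to the growth factor Igf1 (0.53) and to Sparc, a collagen-binding protein (0.564), with a median of 1.23. Nrep was closest to Klhl23 (0.302) and Ptpla (0.363), with a median of 0.909. Aldh1l2 was closest to Pcdhb22 (0.267) and the DNA demethylase Tet1 (0.274), with a median of 0.693.

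Of the 14 neighbours 4 were collagen chains, a class that the choice of the 7 genes left out. All points of these profiles share libraries and the age step by which the genes were picked. When each profile was also divided by its SD, Nrep kept both neighbours, Nrk, Hunk and Ret kept 1, and Bcat1, Ttyh1 and Aldh1l2 kept none.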

How the data were processed

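Total RNA of quadriceps, depleted of ribosomal RNA (ScriptSeq v2), was sequenced from 18 mice. The submitters' processing notes name the aligner STAR, the read counter HTSeq, DESeq2 and the human and mouse builds GRCh38.p5 and GRCm38.p4, with no role stated for each. Tool versions were not given in the sources used here. For each of the 18 libraries, the deposited table holds the raw count of 15224 genes, with totals of 24901936 to 31440196. It also holds the authors' normalized signal, which is the count divided by 1 factor per library and was not used, and the authors' log2 fold changes and adjusted p-values, which are quoted only where named as theirs.

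Each library is a different mouse by its number, and no number is shared between groups, so no samples were paired. Counts were fitted in edgeR 4.0.16 (R 4.3.3, limma 3.58.1) with TMM factors (0.9103 to 1.075) and 1 mean for each of the 6 groups. The filter, filterByExpr with a minimum count of 10, removed 0 genes. Quasi-likelihood F-tests, tested on simulated data first, gave p-values that were adjusted by Benjamini-Hochberg over all genes and called under 0.05. CPM were computed from TMM-scaled library sizes, standard errors as the log2 difference over the root of F, and group errors as SD. Library profiles used log2 CPM with a prior count of 2. DESeq2 1.42.0, other filters and normalizations, single control genotypes, an Xist term and each mouse left out were alternatives, and leaving out young knockout 82 together with the library labelled knockout 40 was added after seeing the data.

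The 7 genes and the gene lists were chosen with earlier results of these data known. In each list, up to 3 genes per direction with the smallest adjusted p for age in controls were named, up to 3 called in a genotype comparison, and family relatives whatever their values. For each of the 7, the 2 nearest profiles were named. Promoters came from RefSeq (GRCm38.p6; 4 of 7 genes matched), and gene positions and exon lengths from GENCODE M21 (GRCm38).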

Additional observations from a re-analysis of the deposited data

Results flagged for a closer look

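In 14 sets of control values (7 genes at 2 ages, 6 libraries each) 1 set had a library far from the others by Dixon's test. Chance gives about 1 in 20 sets where all libraries of a set belong to 1 group. Each set here pooled floxed and Cre libraries, so that rate holds only in so far as the 2 genotypes are alike. The set was Bcat1 at 17 months, where old Cre 99 had 0.46 CPM (12 counts), while the next library had 0.187 CPM and the lowest 0.0766 CPM. Old Cre 34 and 35 had 4 and 6 counts, and old floxed 5, 46 and 48 had 2, 2 and 3. The gap was 0.712 of the whole range and exceeded the 95% critical value for 6 libraries. The cause was not tested.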

How the results depend on the processing

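No paired analysis was possible because the groups share no replicate numbers. The count of the 7 genes called in a genotype comparison or in a difference of age changes was 0 under every alternative run. Over all recomputed values 788 were kept, 20 changed sign and 9 moved. For tests, kept meant the same direction and call, and for age changes a shift smaller than the spread within groups. Counts had to stay within a fixed ratio, and nearest profiles had to be the same. Those that moved include the neighbours of the genes that did not keep both, and the list genes with Cre controls alone. They also include the age changes of Hunk in Cre and of Ttyh1 in knockout muscle. With Cre controls alone, 26 list genes were called for age in place of 88 (68 to 92 with 1 mouse left out). The share of all genes called for age was 1.8% with Cre controls alone, in place of 18.1%. Among values that were never called, the knockout difference of Ret at 2 months turned from -0.01 to 0.0005039 with only the groups compared, 0.05555 with Cre controls alone and 0.2357 with both doubted libraries out. At 17 months the latter gave -0.06066 for Aldh1l2 and 0.01505 for Ret. Leaving out 1 mouse moved the difference at 2 months from -0.3272 to 0.03771 in Nrk and from -0.2081 to 0.2443 in Ret. At 17 months the range was -0.1184 to 0.3725 in Hunk, -0.06045 to 0.2637 in Aldh1l2 and -0.5177 to 0.01517 in Ret. For the difference of age changes it was -0.3568 to 0.1246 in Hunk, -0.6485 to 0.0004163 in Nrep and -0.5164 to 0.02093 in Ret. The age change in knockout ran from -1.177 to 0.01048 in Bcat1 and from -2.053 to -1.031 in Ttyh1, and in Cre from -2.162 to -1.443 in Hunk. The cause was not tested. Groups of 3 mice and counts of 1 to 52 limit Bcat1 most, whose differences between genotypes had 95% intervals wider than 2 log2 units.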
